A study of Homo sapiens with 9 samples.

Results

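Steroid receptors reach a hormone-binding state on a chaperone line, and 9 genes of that line were followed here: the HSP90 genes HSP90AA1 and HSP90AB1, the HSP70 gene HSPA8 with its helpers DNAJA1 and BAG1, the adaptor STIP1, the co-chaperone PTGES3, and the immunophilins FKBP4 and FKBP5. They are the rows with these 9 symbols among 28216 genes in the count table. The rule that picks them names symbols and no measured value, but the members were chosen with earlier results of these data known. The data are poly(A) RNA sequencing libraries of 2 human prostate cancer lines, both taken from metastases, with 3 libraries in each of 3 groups. LNCaP cells (clone FCG) first spent 24 h in RPMI without phenol red and with 10% charcoal-stripped serum, which is low in steroids, and then received either 10 nM DHT (dihydrotestosterone, an androgen) or vehicle (0.01% ethanol) for 48 h. PC3 cells grew untreated in F12K medium with 10% fetal serum, so that cell line, medium and serum cannot be told apart in any comparison of PC3 with LNCaP. The labels name DHT, while part of the study's own text names R1881, a synthetic androgen, for the same treatment. No label says that replicates came from separate cultures, so p-values measure the spread between these libraries, which may be technical.

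In the textbook cycle, HSP70 (HSPA8) and a J-domain partner such as DNAJA1 take up the unfolded hormone-binding domain, and BAG1 speeds the release of nucleotide from HSP70. STIP1 holds HSP70 and HSP90 together so that the receptor passes to HSP90, PTGES3 (p23) stabilises the closed HSP90 clamp, and an immunophilin, FKBP4 or FKBP5, docks on its far end. FKBP5 lowers the hormone affinity of several steroid receptors and is itself a well-known target gene of these receptors, whereas FKBP4 favours receptor transport to the nucleus. The affinity effect is not stated here for the androgen receptor, and hormone binding was not measured. In prostate cells FKBP5 is widely read as an androgen response gene.

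Libraries held 17397706 to 25640325 counts on genes, with vehicle the shallowest group (17397706 to 18674795), and 3 counts, the floor used for a gene not seen, came to 0.117 to 0.172 CPM (counts of a gene relative to its library's total, after TMM scaling over all 9 libraries). Each of the 9 genes stood above this floor and above the filter of 3 CPM in every library, the lowest value being 11.0 CPM. The epithelial markers EPCAM, KRT8, KRT18 and CDH1 summed to 3538 to 3672 CPM with DHT, 1237 to 1288 CPM with vehicle and 455 to 464 CPM in PC3. The luminal list KLK3, KLK2, HOXB13 and FOLH1 summed to 6278 to 6608, 2274 to 2614 and 472 to 806 CPM, and KLK2 had 0 counts in every PC3 library. The PC3 sum came almost wholly from HOXB13, which averaged 600 CPM in PC3, 423 CPM with DHT and 536 CPM with vehicle. KLK3 and FOLH1 averaged 0.319 and 0.107 CPM in PC3. The PC3 list VIM, CD44, CAV1 and ITGA3 summed to 3265 to 3811 CPM in PC3 and to at most 32.5 CPM in LNCaP libraries. PTPRC, PECAM1, COL1A1 and COL3A1, markers of cells that a pure culture should lack, summed to 40.2 to 51.9 CPM in PC3, 12.5 to 15.2 CPM with DHT and 21.4 to 24.2 CPM with vehicle, mostly from COL1A1. PTPRC had 0 counts in all LNCaP libraries, and the part of these markers in the results was not tested. Replicate 3 of PC3 stood apart from its group over all genes, with a chi-square per gene of 31.5 and 54.4 against replicates 1 and 2, where the latter pair differed by 11.6 and pairs of LNCaP libraries by 2.26 to 5.53.

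FKBP5 had the largest fitted change of the 9 genes in each comparison, by a wide margin where the DHT group entered. In PC3 against vehicle it lay close to FKBP4 (log2 −2.27 and −2.16). Without replicate 3 of PC3, FKBP4 and HSPA8 differed from vehicle by more than FKBP5 did. FKBP5 lies on the minus strand of chromosome 6 (GRCh38, GENCODE 44, bases 35573585 to 35728583), and its canonical transcript has 11 exons in 3750 bases. With DHT it reached 2785, 2909 and 2802 CPM in replicates 1, 2 and 3. With vehicle it stood at 96.6, 86.2 and 95.6 CPM, and in PC3 at 18.7, 29.2 and 11.0 CPM. The 3 groups did not overlap, and every library with DHT lay far above every other library. Behind these values were 56411 to 60253 counts per library with DHT and 1616 to 1927 with vehicle, but only 279 to 650 in PC3.

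**Figure D1:**
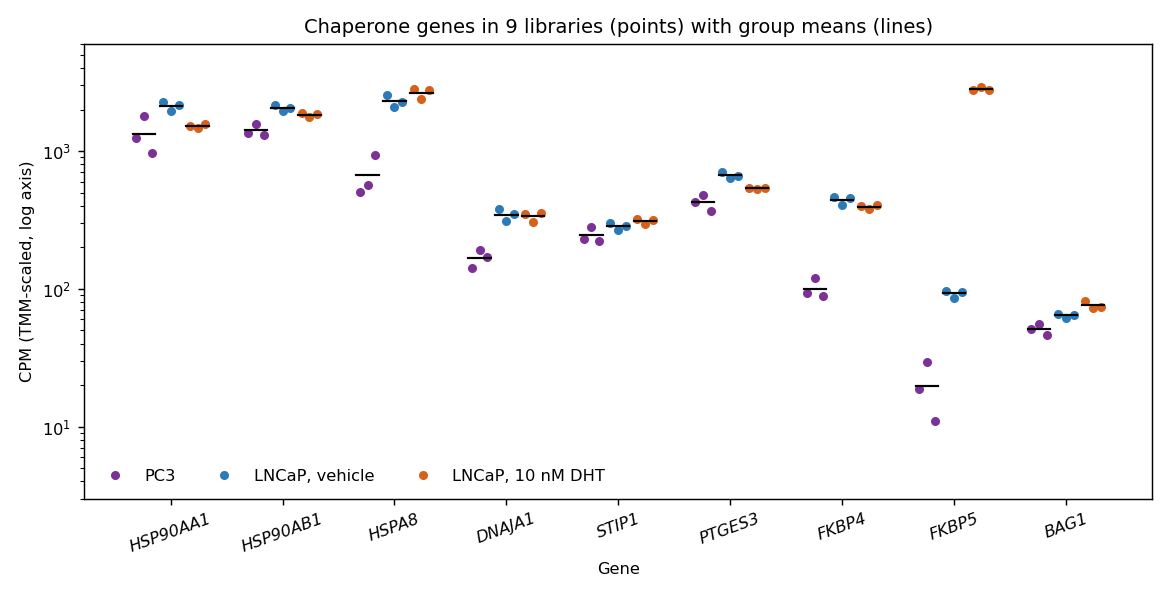
Level of the 9 chaperone genes in each library (points, CPM with TMM scaling on a log axis) and group means (lines) for PC3, LNCaP with vehicle and LNCaP with 10 nM DHT, with n = 3 per group. FKBP5 spans from 11.0 to 2909 CPM over the 9 libraries, while the LNCaP groups lie close together for the other 8 genes.

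FKBP5 was 29.9-fold higher with DHT than with vehicle (log2 fold change 4.90, SE 0.05, n = 3 per group, adjusted p = 3.66e-15, edgeR's quasi-likelihood test with Benjamini-Hochberg adjustment over all 11697 genes tested). By size of the fitted change it ranked 57 among those genes. This is a bulk measurement, in which more expressing cells and more RNA per cell cannot be told apart. In PC3 it was 146-fold lower than in LNCaP with DHT (log2 −7.19, SE 0.36, adjusted p = 6.01e-07) and 4.82-fold lower than in LNCaP with vehicle (log2 −2.27, SE 0.30, adjusted p = 0.000172). The PC3 libraries differed among themselves by more than the LNCaP libraries did, with a coefficient of variation of 46.7% against 2.37% with DHT and 6.19% with vehicle. Without replicate 3 of PC3 the differences were 111-fold from DHT and 3.75-fold from vehicle, both past the threshold.

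A DNA element bound by several steroid receptors was looked for because FKBP5 is a known steroid target. The letters searched were the full palindrome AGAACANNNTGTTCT, 15 bases that read the same on both strands, over the whole span of each of the 9 genes. They occurred once, in intron 5 of the canonical FKBP5 transcript, 126487 bases from the outermost annotated start. On GRCh38 the site with 7 bases on each side covers chr6:35602075-35602103, and it is shown here on the minus strand, the gene's own, with the palindrome in capitals.
FKBP5 intron 5 element: cacattcAGAACAGGGTGTTCTgtgctct
The genome holds 566 such sites on its main chromosomes, 0.193 per megabase, and 2.96% of 18789 consecutive windows of the length of the FKBP5 gene hold one. None of the 13 promoter windows available for the members held it, against 1 of 35116 RefSeq promoter windows (0.00285%). FKBP4 had no promoter window and was not searched there. A match is a description of the sequence, and binding there was not measured.

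**Figure D2:**
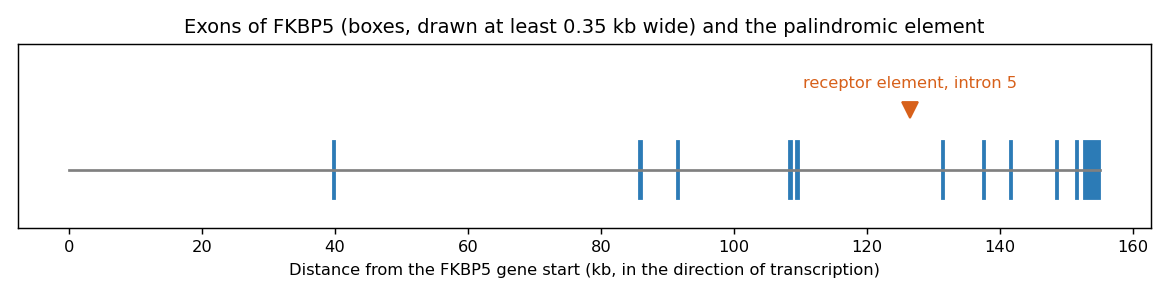
Map of FKBP5 with the exons of its canonical transcript (boxes, drawn at least 0.35 kb wide) along the distance in kb from the outermost annotated gene start. The palindromic element lies in intron 5, 126487 bases from that start, between exons 5 and 6.

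The partner FKBP4 (chromosome 12, plus strand, bases 2794970 to 2805423, 10 exons) followed another course. It stood at 398, 383 and 406 CPM with DHT, at 466, 407 and 454 CPM with vehicle and at 93.5, 119 and 88.4 CPM in PC3. With DHT it was lower in all 3 libraries than in any vehicle library, although the nearest pair, 406 and 407 CPM, almost touched. The PC3 libraries lay far below both LNCaP groups. The fitted difference between DHT and vehicle was 1.14-fold (log2 −0.19, SE 0.05, adjusted p = 0.0025, edgeR's quasi-likelihood test), and it missed the threshold where all 9 libraries shared one fit (adjusted p = 0.101). FKBP4 was 3.98-fold lower in PC3 than in LNCaP with DHT (log2 −1.99, SE 0.11, adjusted p = 1.12e-06) and 4.48-fold lower than with vehicle (log2 −2.16, SE 0.12, adjusted p = 1.14e-06), or 3.49-fold and 4.01-fold without replicate 3 of PC3.

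Per length of the canonical transcript the order of both immunophilins turned over with DHT. The ratio of FKBP5 to FKBP4, as CPM per kb, was 6.93, 7.53 and 6.83 with DHT but 0.205, 0.210 and 0.208 with vehicle. In PC3 it was 0.198, 0.243 and 0.123. FKBP5 was thus the more abundant of the pair only in the DHT libraries, and the PC3 ratios lay on both sides of the vehicle ratios while both genes were lower there. An exact permutation test of 3 against 3 libraries cannot go below p = 0.1 (two-sided), so that no p is given for a ratio.

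**Figure D3:**
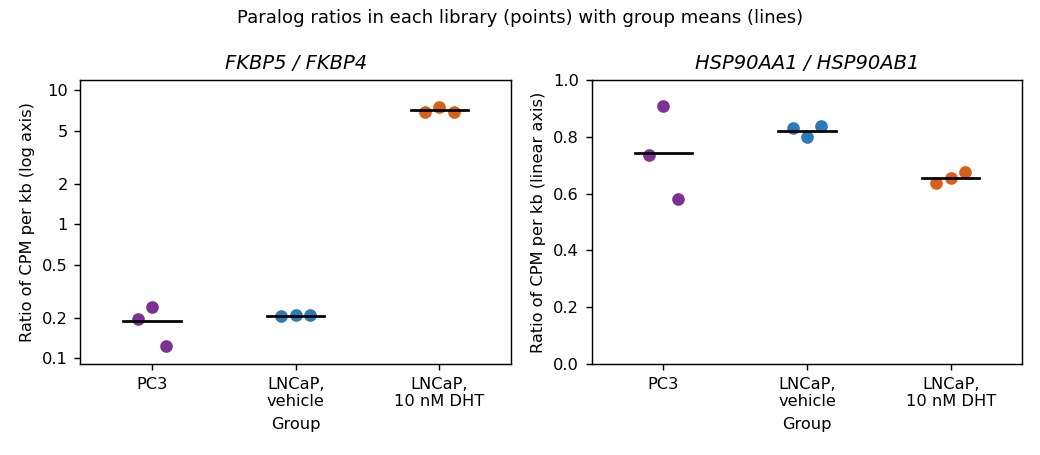
Ratios of CPM per kb in each library (points) with group means (lines) for FKBP5 over FKBP4 (left, log axis) and HSP90AA1 over HSP90AB1 (right, linear axis from 0), n = 3 per group. The first ratio is 6.83 to 7.53 with DHT and at most 0.243 elsewhere, and the second is 0.636 to 0.675 with DHT and 0.798 to 0.836 with vehicle.

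HSP90AA1 and HSP90AB1 encode the cytosolic HSP90 proteins, of which the first is known as the stress-inducible and the second as the constitutive form. HSP90AA1 (chromosome 14, minus strand, bases 102080742 to 102139699) stood at 1526, 1477 and 1577 CPM with DHT, at 2281, 1958 and 2176 CPM with vehicle and at 1245, 1814 and 968 CPM in PC3. It was lower with DHT than with vehicle without overlap, by 1.43-fold (log2 −0.51, SE 0.05, adjusted p = 6.54e-07), the second largest change of the 9 genes. PC3 overlapped the DHT group and did not pass (log2 −0.20, SE 0.20, adjusted p = 0.383, edgeR's quasi-likelihood test). Without replicate 2 of PC3 this difference passed (log2 −0.34, adjusted p = 0.0226), and without its replicate 3 the sign turned (log2 0.10). Against vehicle PC3 was 1.62-fold lower (log2 −0.69, SE 0.21, adjusted p = 0.0146), but not past the threshold without its replicate 1 (adjusted p = 0.0776).

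HSP90AB1 (chromosome 6, plus strand, bases 44246166 to 44253888) showed smaller steps. Its values were 1901, 1782 and 1850.4 CPM with DHT, 2175, 1943 and 2059 CPM with vehicle and 1343, 1579 and 1318 CPM in PC3. The 3 groups were apart, in the order vehicle, DHT and PC3. DHT was 1.14-fold below vehicle (log2 −0.19, SE 0.04, adjusted p = 0.000926), and PC3 was 1.32-fold below DHT (log2 −0.40, SE 0.09, adjusted p = 0.00443) and 1.48-fold below vehicle (log2 −0.56, SE 0.09, adjusted p = 0.000684). Without replicate 1 of PC3 the difference from DHT missed the threshold (adjusted p = 0.0784). The ratio of HSP90AA1 to HSP90AB1 per kb was 0.636, 0.656 and 0.675 with DHT, 0.830, 0.798 and 0.836 with vehicle and 0.734, 0.909 and 0.582 in PC3. The LNCaP groups did not overlap in this ratio, and PC3 covered both.

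PTGES3 (chromosome 12, minus strand, bases 56663341 to 56688408) had the smallest coefficient of variation of the 9 genes with DHT (1.32%), at 541, 528 and 538 CPM. It stood at 708, 641 and 664 CPM with vehicle and at 427, 478 and 369 CPM in PC3. The groups were apart in the same order as for HSP90AB1. The gene was 1.28-fold lower with DHT than with vehicle (log2 −0.35, SE 0.04, adjusted p = 2.04e-06) and, in PC3, 1.27-fold below DHT (log2 −0.35, SE 0.10, adjusted p = 0.00993) and 1.60-fold below vehicle (log2 −0.68, SE 0.10, adjusted p = 0.000308). The difference of PC3 from DHT missed the threshold without replicate 1 of PC3 (adjusted p = 0.0963). Its profile over the 9 libraries was the nearest to that of HSP90AB1 among all pairs of the 9 genes, with a root mean square distance of 0.08 between their mean-centred log2 CPM.

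STIP1 (chromosome 11, plus strand, bases 64185272 to 64204543), the adaptor between both chaperones, differed by little in each comparison. It stood at 321, 294 and 318 CPM with DHT, at 302, 269 and 286 CPM with vehicle and at 231, 282 and 222 CPM in PC3. DHT and vehicle overlapped (log2 0.09, SE 0.04, adjusted p = 0.0783). With the replicate number as a block, which pairs the LNCaP libraries, the same difference passed the threshold (log2 0.09, adjusted p = 0.0149), as it did without replicate 2 of the DHT group (log2 0.13, adjusted p = 0.0199). PC3 was lower than DHT (log2 −0.36, SE 0.10, adjusted p = 0.00918) and, with overlap, lower than vehicle (log2 −0.25, SE 0.10, adjusted p = 0.0463), and both calls were lost without replicate 1 or without replicate 3 of PC3. The call against vehicle was lost under 5 of 15 alternatives.

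The HSP70 side of the cycle differed more between the lines than with DHT. HSPA8 (chromosome 11, minus strand, bases 123057489 to 123063230), the constitutive cytosolic HSP70, stood at 2808, 2374 and 2779 CPM with DHT, at 2568, 2088 and 2268 CPM with vehicle and at 508, 565 and 945 CPM in PC3. The LNCaP groups overlapped, whereas PC3 lay below all LNCaP libraries, its replicate 3 standing above its other libraries. HSPA8 was 3.98-fold lower in PC3 than with DHT (log2 −1.99, SE 0.24, adjusted p = 8.42e-05) and 3.48-fold lower than with vehicle (log2 −1.80, SE 0.23, adjusted p = 0.000166). Without replicate 3 of PC3 these became 4.63-fold and 4.14-fold. Between DHT and vehicle the difference of 1.13-fold passed (log2 0.17, SE 0.07, adjusted p = 0.0344). DHT was higher than vehicle in all 3 same-numbered pairs, and the adjusted p was 0.000159 with the replicate number as a block. It missed the threshold under 6 of 15 alternatives, which were DESeq2's Wald test (adjusted p = 0.121), 1 fit of all 9 libraries (adjusted p = 0.499) and leaving out replicate 1 or 3 of the DHT group or replicate 2 or 3 of the vehicle group.

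DNAJA1 (chromosome 9, plus strand, bases 33025273 to 33039907) was also lower in PC3, by less than HSPA8. It stood at 349.8, 305 and 358 CPM with DHT, at 378, 309 and 352 CPM with vehicle and at 141, 193 and 169 CPM in PC3. The LNCaP groups overlapped and did not pass the test (log2 −0.06, SE 0.07, adjusted p = 0.387), with a sign that turned without replicate 2 of the DHT group (0.0032) and a call that was gained without replicate 2 of the vehicle group (log2 −0.15, adjusted p = 0.0436). PC3 lay below every LNCaP library, by 2.03-fold against DHT (log2 −1.02, SE 0.12, adjusted p = 8.21e-05) and 2.10-fold against vehicle (log2 −1.07, SE 0.12, adjusted p = 8.25e-05), close to the fold of 2 used as a threshold. Without replicate 1 of PC3 they fell to 1.73-fold and 1.83-fold, still past the adjusted p. The difference from DHT also lay under a fold of 2 without replicate 3 of PC3 (1.90-fold) and where each gene needed 10 counts in every library (1.98-fold).

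BAG1 (chromosome 9, minus strand, bases 33247820 to 33264720) had the lowest level per kb of the 9 genes in LNCaP cells. Its values were 81.9, 73.1 and 73.6 CPM with DHT, 66.1, 61.1 and 65.1 CPM with vehicle and 50.7, 55.8 and 46.2 CPM in PC3, and the 3 groups were apart. It was 1.17-fold higher with DHT than with vehicle (log2 0.22, SE 0.05, adjusted p = 0.00107), and FKBP5 was the other member that rose with DHT without overlap. In PC3 it was 1.51-fold below DHT (log2 −0.60, SE 0.08, adjusted p = 0.00026) and 1.28-fold below vehicle (log2 −0.35, SE 0.08, adjusted p = 0.00359).

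**Figure D4:**
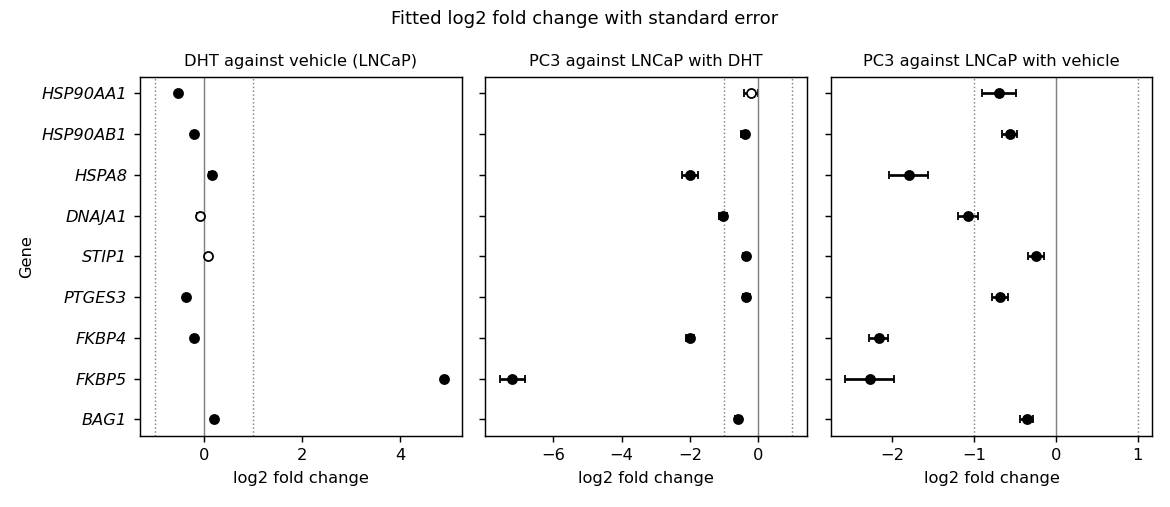
Fitted log2 fold change with its standard error (bars) for the 9 genes in the 3 comparisons, filled where the adjusted p is under 0.05 and open otherwise, with dotted lines at a fold of 2. FKBP5 stands at 4.90, −7.19 and −2.27, and every point of both PC3 panels lies below 0, with HSP90AA1 against DHT open.

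Counted over the 9 genes, DHT against vehicle gave 3 higher (FKBP5, HSPA8 and BAG1), 4 lower (FKBP4, HSP90AA1, HSP90AB1 and PTGES3) and 2 not past an adjusted p of 0.05, where 37.1% of all genes tested were higher and 37.8% lower. Only FKBP5 also reached a fold of 2, where 14.0% of all genes did. The median of the 9 log2 fold changes was −0.06, against −0.01 over all genes, and 6 of the 9 genes had groups that did not overlap, as had 8981 of 11697 genes.

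PC3 against LNCaP with DHT gave 0 members higher and 8 lower, where 42.9% of 12541 genes were higher and 41.1% lower. FKBP4, FKBP5, HSPA8 and DNAJA1 were lower by a fold of 2 or more, 4 of 9 where 46.0% of all genes passed in either direction. Without replicate 1 of PC3, 5 members were past the adjusted p, as HSP90AB1, PTGES3 and STIP1 missed it, and without replicate 3 there were 7. In both cases 3 members, without DNAJA1, also passed the fold of 2. PC3 against LNCaP with vehicle gave 0 higher and 9 lower, where 42.6% of 12686 genes were higher and 40.8% lower, and those 4 genes again passed the fold of 2, where 43.2% did. Against vehicle, 7 members were past the adjusted p without replicate 1 of PC3, and 3 of these also passed the fold of 2. Without replicate 3 of PC3, or with the replicate block, 8 members were past the adjusted p. The same number passed where each gene needed 10 counts in every library. The medians were −0.60 and −0.69, against 0.04 and 0.03 over all genes. Both comparisons use the PC3 libraries, and the DHT libraries enter 2 of the 3 comparisons, so these counts are not independent of one another.

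As a share of all counts on genes, the 9 members took 0.963% to 1.02% with DHT, 0.836% to 0.948% with vehicle and 0.405% to 0.507% in PC3. Leaving FKBP5 out, the shares were 0.687% to 0.754% with DHT and 0.827% to 0.938% with vehicle, so that the order of both LNCaP groups turned, and 0.403% to 0.504% in PC3. These are shares of raw counts, without the TMM scaling used for CPM. The TMM factors were 0.922 to 0.954 with DHT and 1.05 to 1.08 with vehicle, so the turn of order is stated for raw shares only. Per kb of canonical transcript, HSPA8 led with DHT at 1172 ± 107 CPM per kb (SD, n = 3), followed by FKBP5 at 755 ± 17.9 and HSP90AB1 at 722 ± 23.4. The latter pair overlapped, as FKBP5 ranged from 743 to 776 and HSP90AB1 from 697 to 744. With vehicle FKBP5 was the eighth of the 9 at 24.7 ± 1.53 CPM per kb, above BAG1 at 16.8 ± 0.685, and in PC3 it was the ninth at 5.23 ± 2.44, below BAG1 at 13.3 ± 1.25. HSP90AB1 led in PC3 at 553 ± 56.5 CPM per kb, followed by HSP90AA1 at 416 ± 134 and HSPA8 at 297 ± 105, and HSP90AA1 overlapped both.

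The lines also differed in the ratios between partners. Reads on HSPA8 per read on STIP1 were 2.20, 2.01 and 4.26 in PC3 but 7.77 to 8.75 over the 6 LNCaP libraries. Reads on FKBP4 per read on HSP90AB1 were 0.0697, 0.0754 and 0.0671 in PC3 but 0.209 to 0.221 in LNCaP. In both ratios each PC3 library lay below every LNCaP library, and the LNCaP groups overlapped each other.

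Heat shock elements were looked for in the promoters because several members are classical heat shock genes. The letters were the 3-unit form GAANNTTCNNGAA on both strands of RefSeq windows (GRCh38.p14) that run from 250 bases before to 50 after each gene start. The table has 13 windows for 8 of the members, and 4 of these windows, from 4 members, held the element, against 172 of 35116 windows of all genes (0.490%). FKBP4 had no window, so its promoter was not searched. The sites are shown on the strand of their gene, with distances counted from the RefSeq transcript start, the element in capitals and 7 bases on each side. An element on the other strand reads as its reverse complement.
HSP90AA1, chr14:102087113-102087139, 88 bases before the start: agggttcTTCCGGAAGGTTCgggaggc
HSP90AB1, chr6:44247771-44247797, 165 bases before the start: gagcaggTTCTGGAAGATTCatgggct
HSP90AB1, chr6:44247824-44247850, 112 bases before the start: gagattgTTCTGGAAGCTTCtggattc
HSPA8, chr11:123062347-123062373, 230 bases before the start: cgagcttGAAAGTTCCAGAAcgctgcg
HSPA8, chr11:123062172-123062198, 55 bases before the start: gggccccTTCTGGAAGGTTCtaagata
DNAJA1, chr9:33025269-33025295, 4 bases into the transcript: ccgggcgGAACTTTCCAGAAcgctcgg
Of these 4 genes, HSP90AA1 and HSP90AB1 were lower with DHT than with vehicle, HSPA8 was higher and DNAJA1 did not pass the test, as given above. No match in the other windows says only that these letters are not in them.

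Beyond the members, the wider machinery was read from lists of the HSP90 paralogs and co-chaperones, the HSP70 and HSP110 family, J-domain proteins, BAG factors and other FKBP immunophilins. List counts, here and below, stand beside all genes tested, of which 37.1% were higher and 37.8% lower with DHT. A fold of 2 with DHT was reached by 14.0% of all genes. With DHT, 8 of 26 HSP90 partners tested were higher and 6 lower, none by a fold of 2, with a median log2 fold change of 0.05. Of 11 J-domain genes 8 were higher and 0 lower (median 0.23), led by DNAJB9, an endoplasmic reticulum partner of HSP70, at 53.7 ± 8.92 CPM against 16.8 ± 3.71 (log2 1.65, SE 0.13, adjusted p = 1.09e-07). In the HSP70 and HSP110 list 5 of 11 were higher and 3 lower, among them HSPA4L, an HSP110 gene, at 21.5 CPM against 56.7 CPM (log2 −1.43, adjusted p = 6.91e-10). All 5 BAG genes passed, 3 higher and 2 lower, and none by a fold of 2. Of 8 FKBP genes tested 2 were higher and 3 lower, with FKBP11 at 47.1 CPM against 20.4 CPM (log2 1.18, adjusted p = 4.42e-09) and FKBP7 at 2.12 CPM against 5.38 CPM (log2 −1.37, adjusted p = 1.41e-05).

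**Figure D5:**
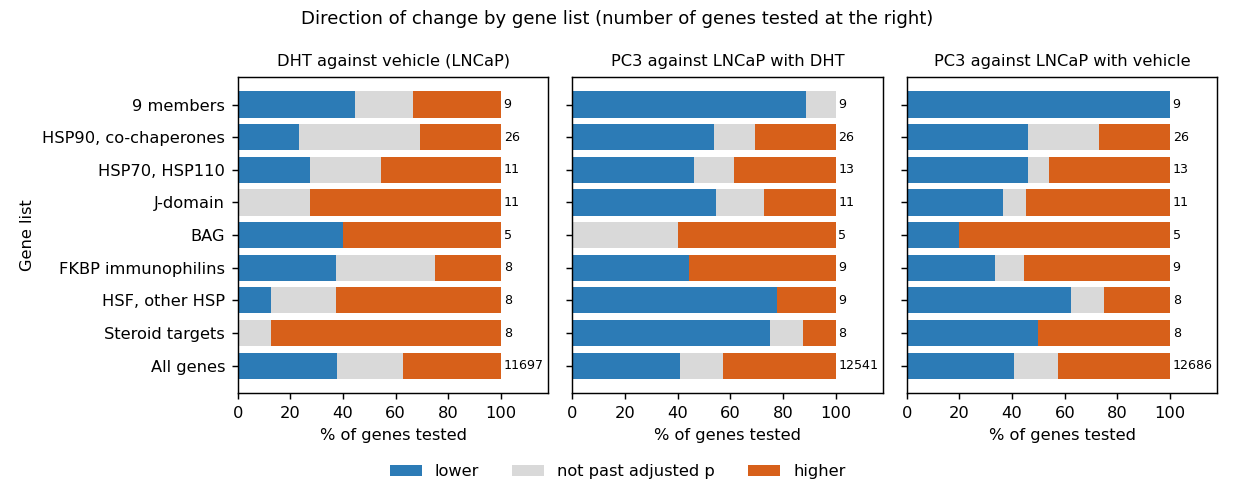
Percentage of genes tested in each list that were lower, higher or not past an adjusted p of 0.05 in each of the 3 comparisons, with the number tested at the right of each bar and all genes in the last row. The 9 members are all lower in PC3 than in LNCaP with vehicle (40.8% of all genes are), and 8 of 11 J-domain genes are higher with DHT (37.1% of all genes are).

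For genes named between the lines with 1 comparison only, that is where they were among the largest changes of their list, and the other comparison may also have passed. Of all genes tested, 42.9% were higher and 41.1% lower in PC3 than with DHT, and 42.6% higher and 40.8% lower than with vehicle. The HSP90 partners were split, with 8 higher and 14 lower of 26 in PC3 against DHT (median −0.24) and 7 higher and 12 lower against vehicle (median −0.23). ST13, the HSP70-interacting protein, differed most among those lower, standing at 406 ± 9.64 CPM with DHT, 277 ± 11.3 CPM with vehicle and 91.3 ± 4.09 CPM in PC3 (log2 −2.16 and −1.62, adjusted p = 4.84e-08 and 1.65e-07). FNIP2, which binds HSP90 with folliculin, was lower too (log2 −1.93 and −1.62), CDC37L1 was lower than with DHT (log2 −1.13), and CACYBP, a calcyclin-binding protein, was lower than with vehicle (log2 −1.44). SUGT1 was higher than with DHT (log2 1.01), and FKBPL, an immunophilin-like co-chaperone, was higher than with vehicle (log2 1.12).

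In the HSP70 and HSP110 list 5 of 13 genes were higher and 6 lower in PC3 than with DHT, and 6 were higher and 6 lower than with vehicle. HSPA12A was lower in PC3, at 0.668 CPM against 11.2 and 15.7 CPM (log2 −4.06 and −4.56), HSPA1L was lower (log2 −1.43 and −1.63), HSPA2 was higher (log2 1.32 and 2.77), and HSPA13 was higher than with vehicle (log2 1.24). HSPA1A and HSPA1B are near-identical and their split is uncertain: HSPA1A stood at 17.1 CPM in PC3 and at most 7 counts in LNCaP libraries, and HSPA1B at 15.9 CPM in PC3, 74.9 CPM with DHT and 58.0 CPM with vehicle. Of 11 J-domain genes 3 were higher and 6 lower than with DHT, and 6 higher and 4 lower than with vehicle, with DNAJB6 at 121 ± 5.58 CPM in PC3 against 37.6 and 31.3 CPM (log2 1.67 and 1.92) and DNAJB4 at 4.20 CPM against 19.4 and 16.6 CPM (log2 −2.21 against DHT).

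The BAG genes other than BAG1, which was lower in PC3, gave 3 higher and 0 lower of 5 against DHT and 4 higher and 1 lower against vehicle. BAG3, which links HSP70 to autophagy, stood at 352 ± 95.1 CPM in PC3, 90.8 ± 3.60 CPM with DHT and 75.6 ± 7.21 CPM with vehicle (log2 1.94 and 2.20, adjusted p = 1.86e-05 and 1.33e-05), and BAG2 was higher than with DHT (log2 1.13). Other FKBP genes were divided, 5 higher and 4 lower of 9 against DHT and 5 higher and 3 lower against vehicle, where FKBP4 and FKBP5 were both lower. FKBP9 was higher (log2 2.12 and 1.67), FKBP1B was higher (log2 2.20 and 4.37, the latter on 1 to 7 counts per vehicle library and from 3.85 to 5.39 when 1 of them was left out), FKBP14 was higher than with DHT (log2 1.81), FKBP1A, the target of the drug FK506, stood at 437 CPM against 105 CPM with vehicle (log2 2.04), and FKBP10 (log2 −1.30 and −1.33) and FKBP11 (log2 −2.36 and −1.16) were lower.

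Heat shock factors and other heat shock proteins gave 5 higher and 1 lower of 8 with DHT, with HSPB8 at 4.55 CPM against 0.837 CPM (log2 2.40, adjusted p = 1.44e-06). In PC3 2 of 9 were higher and 7 lower than with DHT, and 2 of 8 higher and 5 lower than with vehicle. SERPINH1, a collagen chaperone, stood at 92.7 CPM in PC3 and at 2 to 12 counts in LNCaP libraries. HSPB8 had at most 2 counts in PC3. HSPB1 was lower than with DHT (log2 −1.60), the mitochondrial chaperonin pair was lower, HSPE1 (log2 −1.34 and −1.14) and HSPD1 (log2 −1.10 and −1.22) in both comparisons, and HSPB11 was lower than with vehicle (log2 −1.17). HSF1, the main heat shock transcription factor, was higher in PC3 than with vehicle, at 179 ± 21.8 CPM against 80.9 ± 1.31 CPM (log2 1.13, adjusted p = 1.07e-05).

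Among other steroid receptors, NR3C1, the glucocorticoid receptor, stood at 61.9 ± 7.86 CPM in PC3 but at 0.541 CPM with DHT and 0.702 CPM with vehicle, on 5 to 18 counts per LNCaP library. NR3C2, the mineralocorticoid receptor, was at 30.6 CPM in PC3, 6.10 CPM with DHT and 9.84 CPM with vehicle, higher in PC3 (log2 2.31 and 1.61) and lower with DHT than with vehicle (log2 −0.72). PGR, ESR1 and ESR2 did not pass the filter of 3 CPM in any comparison, so that 1 of 5 genes was tested with DHT and 2 of 5 in each PC3 comparison.

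Genes known to be induced by steroids along with FKBP5 were set beside it. With DHT 7 of 8 were higher and 0 lower, 6 by a fold of 2 or more (median log2 1.66). NDRG1 stood at 1684 CPM against 59.4 CPM (log2 4.80, SE 0.15, adjusted p = 1.61e-11), ERRFI1 at 878 CPM against 43.3 CPM (log2 4.31) and SGK1 at 16.1 CPM against 1.35 CPM (log2 3.53), whereas KLF9, the one not past the test, stood at 99.8 ± 4.09 CPM against 102 ± 3.82 CPM and is named after its values were seen. The fitted change of FKBP5, 4.90, differed from that of NDRG1 by less than the SE of the latter. All 5 genes of an androgen response check were higher with DHT, with STEAP4 at 164 CPM against 0.219 CPM (2 to 9 counts), KLK2 at 699 CPM against 38.1 CPM (log2 4.17) and SLC45A3 at 1298 CPM against 77.7 CPM (log2 4.03).

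In PC3 the same lists split. Of the 8 steroid targets 1 was higher and 6 lower than with DHT, but 4 were higher and 4 lower than with vehicle. ERRFI1 stood at 1400.3 ± 195 CPM in PC3, above vehicle (log2 4.99), and SGK1 (log2 3.01) and NDRG1 (log2 2.19) were also above vehicle, where FKBP5 was below it. KLF9 was at 0.693 CPM in PC3 against 99.8 and 102 CPM, ZBTB16 had at most 1 count in a PC3 library against 145 and 41.1 CPM, and TSC22D3 was lower than with vehicle, at 24.3 CPM against 67.8 CPM. NDRG1 was lower than with DHT (log2 −2.62). The androgen check was lower in 5 of 5 genes against DHT and in the 4 tested against vehicle, with KLK3 at 2 to 20 counts in PC3, STEAP4 at 1.56 CPM against 164 CPM with DHT and, not tested, 0.219 CPM with vehicle, and TMPRSS2 at 30.3 CPM against 181 CPM with vehicle (log2 −2.60).

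Over all 12842 genes above 3 CPM in at least 3 of the 9 libraries, the 5 profiles nearest to FKBP5 were those of PSLNR, HERC3, SLC45A3, TUBA3D and NPPC, by the root mean square distance between mean-centred log2 CPM over the 9 libraries. The distances were 0.39, 0.47, 0.49, 0.49 and 0.51. HERC3, a ubiquitin ligase of the HECT type, stood at 949 CPM with DHT, 59.2 CPM with vehicle and 8.19 CPM in PC3. SLC45A3 followed with 1298, 77.7 and 13.3 CPM. PSLNR, TUBA3D and NPPC had at most 0.618 CPM on average in either other group, so that their distances rest on the prior count of 2 used for the log scale. None of the other 8 chaperone genes came nearer to FKBP5 than a distance of 2.42.

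Reads that fit more than one place limit some of these values. Of the 74-base stretches in the exons of each gene, the read length used, 9.48% of PTGES3, 7.58% of HSP90AA1, 6.39% of HSP90AB1 and 3.51% of HSPA8 also occur elsewhere in the genome, against at most 0.858% for the other 5 members (0.140% for FKBP5). Reads on the other strand came to 0.196% to 1.83% of the reads at each member.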

How the data were processed

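The submitters' processing notes name cutadapt 4.1, STAR 2.7.7a on hg38 and UMI-tools 1.1.2 for removing PCR duplicates, and the paper's supplementary methods name other versions of the first 2. The gene annotation is not given in the sources used here. The authors deposited raw counts of reads for each gene symbol and library, and the 253944 entries match the forward-strand STAR column exactly. Between 20.3% and 25.4% of reads were not assigned to a single gene. This share also takes in unmapped reads and reads that fit more than 1 place or gene. Floors cover counting error only.

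Genes with over 3 CPM in at least 3 libraries of a comparison were tested on its 6 libraries with edgeR 4.0.16 (R 4.3.3), TMM factors, the quasi-likelihood F test and Benjamini-Hochberg adjustment over all genes tested, and called at an adjusted p under 0.05 and a fold of 2. The batches of the study's own model are not named and were left out. Replicate numbers were taken to pair the LNCaP libraries, because same-numbered libraries deviated together (correlations of 0.19, 0.22 and 0.20). The main fits had the group as their only term, so their SE and adjusted p leave this pairing out. Each SE was derived from the test, as the absolute log2 fold change divided by the square root of F. The pairing enters only in the alternatives with a replicate block. Libraries of a group differed by more than sampling noise. Scripts were tested on simulated data.

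Named are the 9 members, per list and comparison at most the 3 largest rises and falls among called genes, and the 5 profiles nearest to FKBP5, and 1 gene that this rule names is not reported here. Members and lists were chosen with earlier results of these data known. Gene models are from GENCODE 44, promoters from RefSeq. Alternatives were size factors, DESeq2 1.42.0, the likelihood ratio test, a replicate block, other filters, unstranded counts, 1 fit of all 9 libraries and leaving out each library.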

Additional observations from a re-analysis of the deposited data

How the results depend on the processing

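Under 15 alternatives per comparison, 380 of the fitted changes of the 9 members kept their direction and their side of the adjusted p threshold. Of the rest, 6 newly passed this threshold, 17 lost it and 2 turned sign. For the other named genes 1039 of 1039 values kept both, but these genes were named because they were called in the main fits. Some fell under a fold of 2, such as SUGT1 in PC3 against DHT (lowest log2 0.89) and FKBPL against vehicle (lowest log2 0.92). FKBP5 passed in each, from 4.84 to 4.93 with DHT, from −7.46 to −6.80 in PC3 against DHT and from −2.57 to −1.91 against vehicle. Without a filter on low counts, the genes called rose from 1641 to 2941 with DHT, from 5773 to 9147 in PC3 against DHT and from 5485 to 8713 against vehicle, as more genes are tested. Leaving out 1 library at a time, 5 to 9 members were past the adjusted p in PC3 against DHT, the lowest without replicate 1 of PC3, and 3 or 4 members were also past a fold of 2, DNAJA1 being the one lost without replicate 1 or 3 of PC3. In the same fits DNAJA1 with DHT ran from −0.15 to 0.0032 and HSP90AA1 in PC3 against DHT from −0.34 to 0.10, the turns of sign coming without replicate 2 of the DHT group and replicate 3 of PC3. The cause was not tested.

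With the replicate block 1638 genes were called with DHT, 5756 in PC3 against DHT and 5495 against vehicle. Among the members the block changed 2 calls: STIP1 with DHT passed (0.09, adjusted p = 0.0149), and STIP1 in PC3 against vehicle was lost (−0.25, adjusted p = 0.0703). In the PC3 comparisons the numbers did not pair the libraries (correlations from −0.09 to 0.03). All 9 members lay above the floor of 3 counts in every library.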

Other observations

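PC3 libraries varied more among themselves than LNCaP libraries for HSPA8 (coefficient of variation 35.3%, against 9.14% with DHT and 10.5% with vehicle) and HSP90AA1 (32.1% against 3.29% and 7.70%). In replicate 3 of PC3, HSPA8 was the highest of its group at 945 CPM, while 7 members, FKBP5 at 11.0 CPM, FKBP4, both HSP90 genes, PTGES3, STIP1 and BAG1, were at their lowest. In replicate 2 of PC3, FKBP5, FKBP4, the HSP90 genes, PTGES3, STIP1, DNAJA1 and BAG1 were each the highest of the group. No label sets these libraries apart.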
